A study of Mus musculus with 10 samples.

Results

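The miR-30 family was measured in small RNA libraries of hearts from mice labelled CITED4 knockout and from floxed controls. Its members here are 10 rows chosen by name, with earlier results of these data known, out of 1139 mature miRNAs. They are the guide arms mmu-miR-30a-5p, mmu-miR-30b-5p, mmu-miR-30c-5p, mmu-miR-30d-5p and mmu-miR-30e-5p and 5 arms from the other side of the same hairpins, mmu-miR-30a-3p, mmu-miR-30b-3p, mmu-miR-30c-1-3p, mmu-miR-30d-3p and mmu-miR-30e-3p. The filter on low counts left out 682 of the 1139 rows, and all 10 members passed it. The knockout group was 5 libraries labelled CITED4 knockout, and the control group was 5 libraries labelled floxed control, in which the gene carries recombination sites. All 10 came from whole hearts of male C57Bl6N mice, frozen 1 week after transverse aortic constriction, an operation that tightens the aorta so that the left ventricle pumps against a raised pressure. The sources used here do not give the Cre driver of the knockout, whether controls carried Cre, the age of the mice or whether 1 library is 1 mouse. CITED4 is a transcriptional coregulator, and since its messenger RNA is not counted in small RNA libraries, genotypes are those of the labels. The comparison asks whether the family's level, and the balance between its arms, differed between knockout and control hearts under the same load.

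A miRNA is cut from a hairpin as a pair of short strands. One strand, the guide, is usually kept by an Argonaute protein and pairs with messenger RNAs through its seed, the bases 2 to 8 from its 5′ end, while the opposite strand is usually lost as the passenger. The miR-30 guides share a seed and therefore a set of possible targets. In heart muscle, where the family is abundant, miR-30 is known to repress connective tissue growth factor, a profibrotic protein, together with miR-133. In neonatal rat heart muscle cells its members are known to act on p53 and mitochondrial fission, and in human cell lines miR-30a is known to repress Beclin 1, a protein of autophagy. miR-30d is also found in human plasma, where it is studied as a marker in heart failure.

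The RefSeq mature sequences on GRCm38.p6 held 6 of the 10 members. miR-30b-5p, miR-30b-3p, miR-30d-5p and miR-30d-3p are given by name. The guide sequences are shown because they carry the shared seed, in capitals, and because their 3′ parts tell the members apart.
miR-30a-5p: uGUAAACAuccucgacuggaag
miR-30c-5p: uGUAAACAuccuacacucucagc
miR-30e-5p: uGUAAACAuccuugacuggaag
The guides miR-30a-5p and miR-30e-5p differed at a single base, C13U (position counted from 1 at the 5′ end, miR-30a-5p first). From miR-30c-5p, miR-30a-5p differed at 5 of the 22 bases compared, all after base 12. Besides the family, miR-384-5p was the one entry with this seed among the 1679 distinct mature miRNAs of the RefSeq table.

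The opposite arms split into separate seeds, shown here with bases 2 to 8 in capitals. miR-30a-3p and miR-30e-3p share one seed and differed at a single base, G18A (miR-30a-3p first), while miR-30c-1-3p and its relative miR-30c-2-3p, which is not among the members, share another.
miR-30a-3p: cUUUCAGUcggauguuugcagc
miR-30e-3p: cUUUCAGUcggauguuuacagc
miR-30c-1-3p: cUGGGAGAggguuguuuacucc
miR-30c-2-3p: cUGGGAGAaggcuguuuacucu
Because the a and e arms are near-identical on both sides, and because it is not stated how reads with several matches were counted, the split of reads between miR-30a and miR-30e is uncertain. No member had counts identical to another row.

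The family lies in 3 clusters of paired hairpins (RefSeq positions and GENCODE M21 annotation, both GRCm38). On chromosome 1, plus strand, Mir30a (23272269 to 23272339) overlaps no annotated host gene, and Mir30c-2 (23291701 to 23291784) lies 19361 bases away and overlaps an exon of Gm27028, a long noncoding RNA. On chromosome 4, minus strand, Mir30c-1 (120769534 to 120769622) and Mir30e (120772606 to 120772697) are 2983 bases apart within introns of Nfyc, which encodes a subunit of the CCAAT-binding factor NF-Y. On chromosome 15, minus strand, Mir30b (68337415 to 68337510) lies in an exon of the transcript Gm26621 and Mir30d (68341208 to 68341289) in exons of Gm20732 and Gm37296, with 3697 bases between the hairpins. The mature miR-30c-5p is identical from both of its hairpins, so its reads cannot be assigned to chromosome 1 or 4. The hairpins of Mir30a and Mir30e are shown with both arms in capitals, since the balance between these arms is described further on.
Mir30a, chr1:23272269-23272339, plus strand: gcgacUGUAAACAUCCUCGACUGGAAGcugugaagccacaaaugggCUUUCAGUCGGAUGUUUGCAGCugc
Mir30e, chr4:120772606-120772697, minus strand: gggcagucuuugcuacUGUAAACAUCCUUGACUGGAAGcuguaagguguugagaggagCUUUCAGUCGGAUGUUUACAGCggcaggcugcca

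Libraries held 8909932 to 18369483 counts in the knockout group and 7526091 to 11608900 in the control group. The heart muscle miRNA miR-1a-3p took 24.8% to 35.5% of counts in knockouts and 27.0% to 39.3% in controls, and miR-208a-3p of the heart myosin gene Myh6 was at 431 ± 121 CPM in knockouts and 603 ± 253 CPM in controls. Levels below are CPM, which relate a count to the library total after scaling by a TMM factor, which corrects for a few miRNAs taking a large share of reads. Mature miRNAs are of about the same length, so CPM was also used to order members by level. Adapter ligation and amplification can favour some sequences, and a read is not known to be a single molecule.

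The 5 guide arms together took 4.78% ± 0.96 of all counts in knockout libraries and 6.47% ± 1.52 in control libraries (SD, n = 5 each). Their summed level was 39553, 29322, 55173, 61379 and 47188 CPM in knockout replicates 1 to 5, against 44292, 59955, 79518, 76517 and 78301 CPM in control replicates 1 to 5. Control replicates 3, 4 and 5 stood above every knockout library, and control replicates 1 and 2 lay within the knockout range. The width of this gap depended on the TMM scaling. As a share of all counts, control replicate 4 was at 6.04%, beside 6.03% in knockout replicate 4, the highest knockout. Control replicates 3 and 5 were at 9.03% and 6.42%. The share of counts in a single library had a 95% Wilson interval of at most 0.0205 percentage points to either side, which covers counting error only, so the spread between libraries was far wider than counting error. In whole heart RNA, fewer muscle cells and less miR-30 per cell cannot be told apart.

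The order of the guides was the same in all 10 libraries, namely miR-30a-5p, miR-30d-5p, miR-30c-5p, miR-30e-5p and miR-30b-5p, and each step of this order held in every library. miR-30a-5p made up 41.3% ± 2.42 of the guide reads in knockouts and 43.5% ± 1.51 in controls, and miR-30d-5p 31.1% ± 1.89 and 31.0% ± 2.13. By mean level over all libraries miR-30a-5p ranked 9th and miR-30d-5p 14th of the 1139 miRNAs, followed by miR-30c-5p (25th), miR-30e-5p (28th) and miR-30b-5p (38th). miR-30b-5p made up the smallest part, at 4.55% ± 0.97 of guide reads in knockouts and 3.80% ± 0.52 in controls.

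The mean of every member was lower in knockout than in control hearts, and no member passed the test. Of all tested miRNAs, 0 (0%) had an adjusted p under 0.05 in edgeR's quasi-likelihood test with Benjamini-Hochberg adjustment over all of them, and 29 (6.35%) had an unadjusted p under 0.05. Counts over the 10 members are a description and no independent support. The members were chosen with earlier results of these data known. The guides also varied together across libraries (median Pearson's r of 0.88 with group means subtracted). A negative log2 fold change was found for 10 of the 10 members, beside 214 of all tested miRNAs (46.8%). The median log2 fold change was -0.52 over the 5 guides and -0.32 over the 5 opposite arms, beside 0.03 over all tested miRNAs. Without control replicate 5 the median of the opposite arms was -0.10. An unadjusted p under 0.05 with a lower mean in knockout was found for 4 of the 10 members, miR-30a-5p, miR-30d-5p, miR-30e-5p and miR-30c-1-3p, beside 16 of all tested (3.5%). For 5 of the 10 members, these 4 and miR-30d-3p, every knockout library lay under the mean of the controls, beside 47 of all tested (10.3%). Knockout and control libraries overlapped for all 10 members, and 3 of all tested miRNAs (0.656%) had groups that did not overlap, each lower in knockout. The count of 4 with a small p depended on single libraries: it was 0 without knockout replicate 1 or 2 or control replicate 3, 4 or 5, 1 without knockout replicate 5, and 6 without knockout replicate 4 or control replicate 1.

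**Figure D1:**
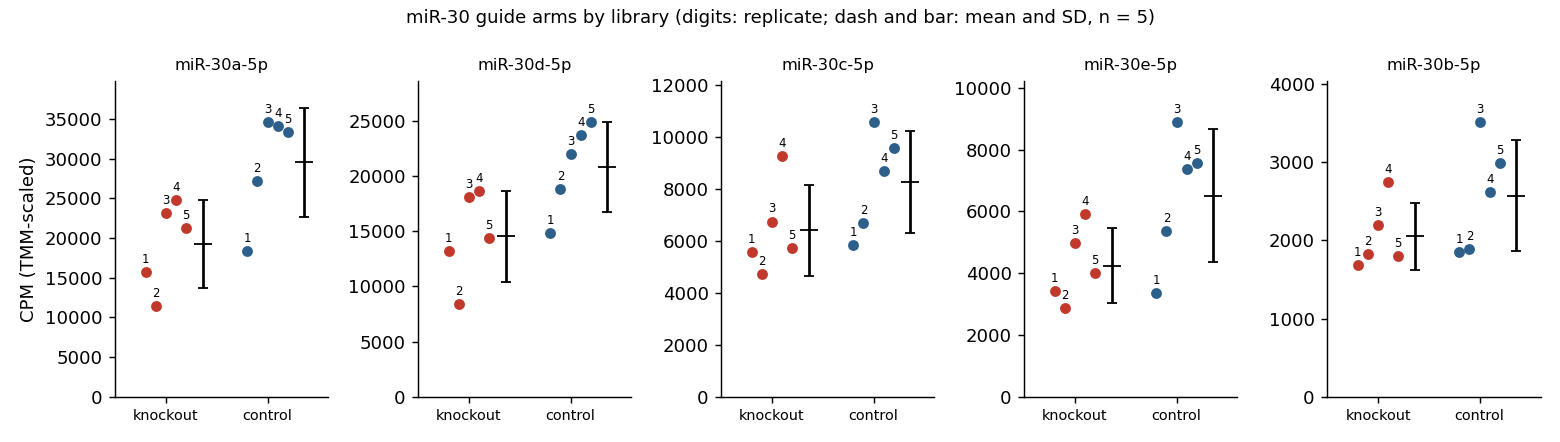
Level of each miR-30 guide arm in CPM (vertical axis, starting at 0, a separate scale per panel) in the 5 knockout (red) and 5 control (blue) libraries, with the replicate number above each point and the mean and SD beside it. In each panel the groups overlap, and control replicate 1 lies among the knockout libraries.

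miR-30a-5p, the most abundant member, was at 15684, 11471, 23158, 24851 and 21308 CPM in knockout replicates 1 to 5, against 18422, 27185, 34602, 34121 and 33314 CPM in control replicates 1 to 5. Control replicates 2 to 5 were above every knockout library, and control replicate 1 was within the knockout range. The log2 fold change was -0.61 ± 0.23 (SE), with a 95% interval from -1.12 to -0.11. In edgeR's quasi-likelihood test its p was 0.021 before adjustment and 0.64 after adjustment. With 1 library left out, the log2 fold change lay between -0.73 and -0.45.

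miR-30d-5p, encoded apart from miR-30a on chromosome 15, was at 13182, 8431, 18098, 18636 and 14354 CPM in knockout replicates 1 to 5, against 14824, 18814, 21963, 23735 and 24864 CPM in control replicates 1 to 5. As for miR-30a-5p, only control replicate 1 lay within the knockout range, while control replicate 2 was just above its upper end. The log2 fold change lay between -0.60 and -0.35 with 1 library left out, around a value of -0.52 from all 10 libraries. miR-30e-5p, from the Nfyc intron, was at 3422, 2889, 4981, 5907 and 4005 CPM in knockout replicates 1 to 5, against 3362, 5368, 8884, 7358 and 7573 CPM in control replicates 1 to 5. Here both control replicates 1 and 2 lay within the knockout range. Its log2 fold change was -0.62 ± 0.26 (SE), with a 95% interval from -1.18 to -0.06, and its adjusted p was 0.64 (edgeR).

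miR-30c-5p, the product of hairpins on chromosomes 1 and 4, was at 5582, 4705, 6741, 9240 and 5715 CPM in knockout replicates 1 to 5, against 5825, 6696, 10558, 8687 and 9556 CPM in control replicates 1 to 5. Control replicates 3 and 5 were above every knockout library and the other 3 controls were not. The log2 fold change of -0.37 had a 95% interval from -0.82 to 0.09, and was -0.24 without control replicate 3. miR-30b-5p, the partner of miR-30d on chromosome 15, was at 1683, 1826, 2195, 2746 and 1806 CPM in knockout replicates 1 to 5, against 1858, 1892, 3511, 2616 and 2995 CPM in control replicates 1 to 5. Knockout replicate 4 was above control replicates 1, 2 and 4. The log2 fold change of -0.33 had a 95% interval from -0.76 to 0.11, so a difference as large as that of miR-30d-5p and no difference were both within it. Without control replicate 3 it was -0.16.

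**Figure D2:**
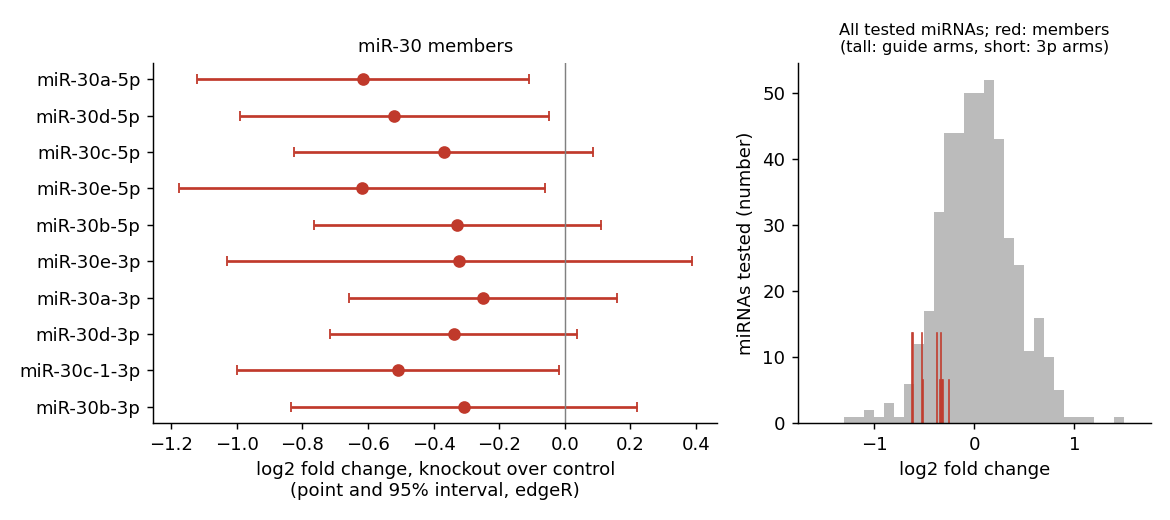
Left, the log2 fold change of knockout over control for each member with its 95% interval from edgeR's quasi-likelihood test. Right, the number of all tested miRNAs by log2 fold change (grey), with the members marked in red (tall lines for guides, short lines for the opposite arms). All 10 members lie between -0.62 and -0.25, and the intervals of 6 include 0.

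Ratios within a cluster describe how partners varied in the same library. miR-30b-5p was at 0.128, 0.217, 0.121, 0.147 and 0.126 of its neighbour miR-30d-5p in knockout replicates 1 to 5, against 0.125, 0.101, 0.160, 0.110 and 0.120 in control replicates 1 to 5. The log2 of this ratio was -2.79 ± 0.35 in knockouts and -3.04 ± 0.25 in controls (SD, n = 5 each), and the groups overlapped. The log2 ratio of miR-30e-5p to miR-30c-5p was -0.60 ± 0.12 in knockouts and -0.39 ± 0.23 in controls, and that of miR-30a-5p to miR-30c-5p was 1.58 ± 0.25 and 1.83 ± 0.16. These ratios were not tested, and miR-30c-5p joins the products of 2 hairpins.

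Each opposite arm was less abundant than the guide of its hairpin, and miR-30e-3p and miR-30a-3p were the most abundant of the opposite arms. miR-30e-3p was at 1421, 939, 2532, 2223 and 1057 CPM in knockout replicates 1 to 5, against 1158, 1275, 2094, 2403 and 3280 CPM in control replicates 1 to 5. miR-30a-3p was at 1479, 1324, 1933, 1888 and 1336 CPM in knockout replicates 1 to 5, against 1353, 1566, 1774, 2213 and 2554 CPM in control replicates 1 to 5. Control replicates 1 to 4 lay within the knockout range for miR-30e-3p, and control replicates 1 to 3 for miR-30a-3p. Which of the 2 arms was higher changed from library to library, with miR-30e-3p above miR-30a-3p in 5 of 10. Their log2 fold changes were -0.32, with a 95% interval from -1.03 to 0.39, and -0.25, with one from -0.66 to 0.16. Without control replicate 5 these were -0.07 and -0.10. Without knockout replicate 2 they were -0.15 and -0.16, and that of miR-30e-3p was -0.19 without knockout replicate 5 and -0.52 without knockout replicate 3.

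The remaining opposite arms were rare, at 117 to 635 counts in a library. miR-30c-1-3p, which only the hairpin within Nfyc yields, was at 19.6, 22.3, 26.8, 33.3 and 22.2 CPM in knockout replicates 1 to 5, against 26.1, 25.1, 31.0, 46.4 and 48.2 CPM in control replicates 1 to 5. Control replicates 4 and 5 were above all knockout libraries. Its log2 fold change was -0.51 ± 0.23 (SE). Its unadjusted p in edgeR's quasi-likelihood test was 0.044, and its adjusted p was 0.64. miR-30d-3p ranged from 26.2 to 40.1 CPM in knockouts and from 29.99 to 50.4 CPM in controls, and miR-30b-3p from 12.6 to 20.2 CPM and from 13.7 to 30.3 CPM. The log2 fold change of miR-30b-3p was -0.31, and -0.06 without control replicate 5, the highest library. miR-30c-2-3p, from the chromosome 1 hairpin, was at 137 ± 19.2 CPM in knockouts and 167 ± 28.5 CPM in controls. It exceeded miR-30c-1-3p by a ratio of 5.59 ± 0.77 in knockouts and 4.93 ± 0.91 in controls (SD, n = 5 each).

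**Figure D3:**
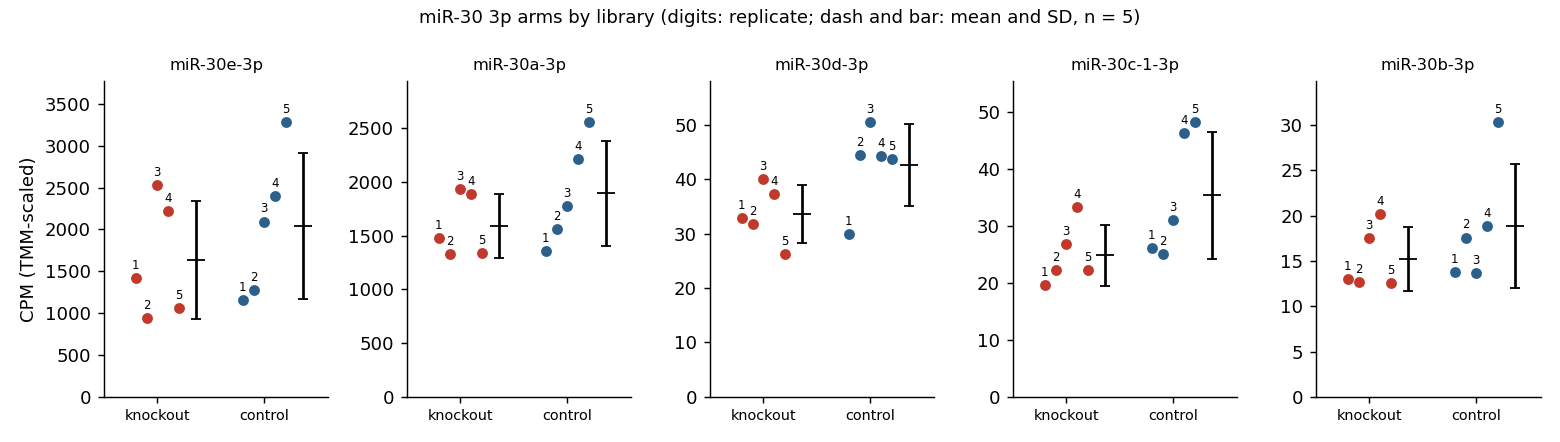
Level of each opposite (3p) arm in CPM (vertical axis, starting at 0, a separate scale per panel) in the 5 knockout (red) and 5 control (blue) libraries, with the replicate number above each point and the mean and SD beside it. miR-30e-3p and miR-30a-3p reach 2532 and 1933 CPM in knockouts, the other 3 stay under 51 CPM, and the groups overlap in all panels.

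The balance between the arms of a hairpin needs no scaling of libraries, because both arms are counted in the same one. The guide outnumbered the opposite arm in all 5 hairpin families and in every library, by a geometric mean of 2.97 to 1 for miR-30e, 13.6 to 1 for miR-30a, 39.6 to 1 for miR-30c, 136 to 1 for miR-30b and 453 to 1 for miR-30d. For miR-30c, both opposite arms were added together. Among all 155 hairpin families with both arms tested, the 5p arm was the more abundant in 87.

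miR-30a had the widest difference in arm balance between groups of the 5. Its guide was 10.6, 8.66, 11.98, 13.2 and 15.9 times its opposite arm in knockout replicates 1 to 5, against 13.6, 17.4, 19.5, 15.4 and 13.0 times in control replicates 1 to 5. Knockout replicates 1, 2 and 3 were below every control, and knockout replicates 4 and 5 lay within the control range. The difference in log2 ratio, knockout minus control, was -0.40 with a 95% interval from -0.84 to 0.04 (limma, adjusted p = 0.87 over 155 families). For miR-30e the guide was 2.41, 3.08, 1.97, 2.66 and 3.79 times its opposite arm in knockout replicates 1 to 5, against 2.90, 4.21, 4.24, 3.06 and 2.31 times in control replicates 1 to 5, with overlapping groups.

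A lower mean arm ratio in knockout was found for 5 of the 5 miR-30 families, beside 79 of all 155 (51%), and none passed the test. The differences were -0.26 for miR-30e, -0.22 for miR-30d, -0.05 for miR-30c and -0.03 for miR-30b, and each 95% interval included 0. An unadjusted p under 0.05 in limma was found for 0 of the 5, beside 3 of all 155 (1.94%), and 0 of 155 passed adjustment. Without control replicate 3, the differences for miR-30b and miR-30c turned to 0.19 and 0.013. The difference for miR-30d was -0.05 without knockout replicate 2, and that for miR-30e was -0.15 without knockout replicate 3 and -0.17 without control replicate 2 or 3. The miR-30b difference, close to 0, also moved by over 1.5 times without knockout replicate 1, 2, 3 or 5 or control replicate 2 or 5, and reached -0.15 without control replicate 5. That of miR-30c did so without knockout replicate 1, 2 or 4 or control replicate 1, and reached -0.12 without knockout replicate 4.

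**Figure D4:**
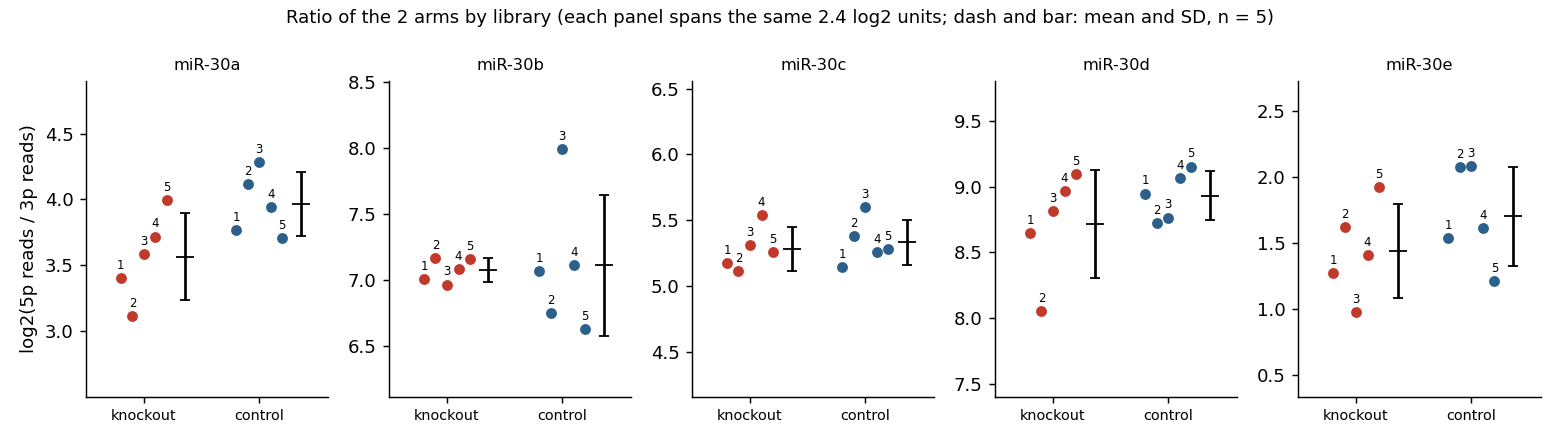
Log2 ratio of 5p to 3p reads (vertical axis, each panel spanning the same 2.4 log2 units but not starting at 0) for the 5 hairpin families in the 5 knockout (red) and 5 control (blue) libraries, with replicate numbers, mean and SD. The knockout mean is lower by 0.40 for miR-30a and by 0.03 for miR-30b, and the groups overlap in every panel.

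Members were compared with each other over the 10 libraries after each group's mean was subtracted from the log2 CPM, so that a genotype difference does not enter. Among the guides, Pearson's r ran from 0.67 (miR-30b-5p with miR-30d-5p, neighbours on chromosome 15) to 0.96 (miR-30a-5p with miR-30d-5p, on different chromosomes), with a median of 0.88 over 10 pairs. Among the opposite arms the closest pair was miR-30a-3p with miR-30e-3p, at 0.96, the pair that differs at 1 base. Between guides and opposite arms the median was 0.72 over 25 pairs. These values are descriptions: the points share libraries, their scaling and, for near-identical arms, possibly reads.

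By the same measure, the 5 miRNAs outside the family most like the summed guides were miR-378b (r = 0.95), miR-378a-3p (0.95), miR-1943-5p (0.93), miR-881-3p (0.93) and miR-133b-3p (0.92), beside a median of -0.06 over 439 miRNAs. Of these 439, 29 had r over 0.8. Spearman's rho was 0.95, 0.94, 0.92, 0.84 and 0.90 for these 5, and r without the 2 libraries farthest from the median was 0.97, 0.97, 0.89, 0.85 and 0.95. miR-378a-3p, encoded in Ppargc1b, was at 46443 ± 16894 CPM in knockouts and 68470 ± 21264 CPM in controls. miR-378b was at 206 ± 88.0 CPM in knockouts and 310 ± 111 CPM in controls. It carries the same number in its name as miR-378a-3p, and whether the 2 share reads is not known. miR-133b-3p, a muscle miRNA, was at 291 ± 70.4 and 430 ± 124 CPM. miR-1943-5p was rare, and its mean was the higher in knockouts, at 8.14 against 7.91 CPM. Rarer still was miR-881-3p, at 0.75 ± 0.47 CPM in knockouts and 1.38 ± 0.86 CPM in controls, so its r rests on few counts.

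The fibroblast list, a sum made up mostly of miR-21a-5p, ran opposite to the guides across libraries. This list (miR-21a-5p, miR-199a-3p, miR-199a-5p and miR-214-3p, none of them at 0) summed to 100981, 132710, 82575, 52492 and 112689 CPM in knockout replicates 1 to 5, against 108890, 101515, 40105, 46238 and 38600 CPM in control replicates 1 to 5. The control libraries with the lowest guide sums, replicates 1 and 2, had the highest fibroblast sums of their group, and knockout replicate 4 had the highest guide sum and the lowest fibroblast sum of its group. With group means subtracted, r between the log2 sums was -0.86 (rho = -0.83, and r = -0.85 without the 2 farthest libraries). On average miR-21a-5p was 77287 of the list's 96289 CPM in knockouts and 52572 of 67070 CPM in controls. The r therefore follows mainly this miRNA, and r of the list without it was not computed. Of the 4 miRNAs, 4 had a higher mean in knockout, beside 53.2% of all tested, with a median log2 fold change of 0.39, and 0 passed edgeR's test. The part of this list in the lower miR-30 means was not tested.

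The muscle list (miR-1a-3p, miR-133a-3p, miR-133b-3p, miR-208a-3p, miR-208b-3p and miR-499-5p) summed to between 220847 and 387114 CPM in knockouts and between 242925 and 504570 CPM in controls. Of its 6 members 5 had a lower mean in knockout, 0 passed edgeR's test and 2 had p under 0.05 before adjustment, with a median log2 fold change of -0.40. Over all tested miRNAs 46.8% had a negative log2 fold change and 3.5% were lower with p under 0.05, and the median was 0.03. miR-208b-3p, encoded in the fetal myosin gene Myh7, was the one with a higher mean. The guide sum was 0.153 ± 0.018 of the muscle sum in knockouts and 0.202 ± 0.067 in controls, and 10.4 ± 1.78 times that sum in knockouts and 11.8 ± 1.64 times in controls when miR-1a-3p was left out. Control replicate 3 was highest in the first ratio, at 0.319 against 0.152 to 0.189 in the other controls. With group means subtracted, r of the guide sum with the muscle sum was 0.72 (rho = 0.55), and 0.54 without the 2 farthest libraries. This r is mainly that of miR-1a-3p (0.71), on average 299919 of the list's 304425 CPM in knockouts and 351241 of 357078 CPM in controls. Over the 6 members r ran from 0.24 (miR-208b-3p) to 0.92 (miR-133b-3p). The part of muscle content in the lower miR-30 means was not tested.

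**Figure D5:**
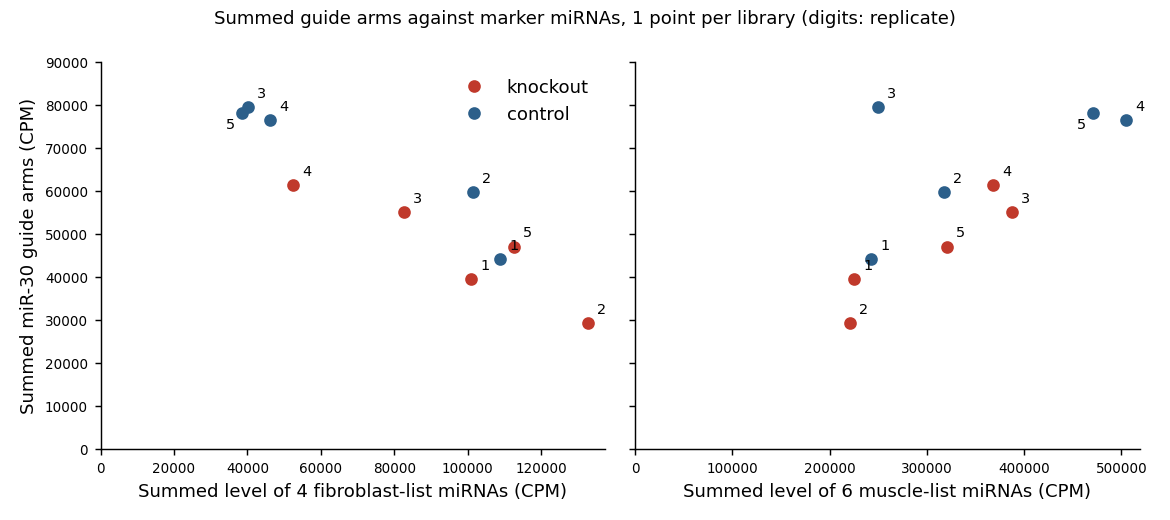
Summed level of the 5 guide arms (vertical axis, CPM) against the summed level of the 4 fibroblast-list miRNAs (left) and of the 6 muscle-list miRNAs (right), 1 point per library, knockout in red and control in blue with replicate numbers. Control replicates 3, 4 and 5 combine the highest guide sums with fibroblast sums of 38600 to 46238 CPM, below all 5 knockout libraries.

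Other marker lists were set beside the guides in the same way. The erythroid list was fixed with 4 miRNAs, but miR-451a was not among the miRNAs counted, so 3 were summed. The erythroid list (miR-144-3p, miR-144-5p and miR-486a-5p, the last also made in muscle) summed to between 11532 and 25240 CPM in knockouts and between 13759 and 33016 CPM in controls, with r of 0.91 to the guide sum (rho = 0.93, and 0.96 for r without the 2 farthest libraries). The endothelial list had r of 0.35, the smooth muscle list 0.05 and the leukocyte list -0.30, with group sums of 28201 ± 3704, 30759 ± 2655 and 1562 ± 142 CPM in knockouts and 31177 ± 3998, 31394 ± 2306 and 1577 ± 14.4 CPM in controls. The part of these lists in the miR-30 means was not tested.

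Of 9 miRNAs outside the family that are known as antifibrotic in the heart or related to that role (miR-133a and b, miR-29a, b and c, miR-101a and b, miR-26a and b), 9 had a lower mean in knockout, beside 46.8% of all tested miRNAs, and 0 passed edgeR's test. Of them 3 had p under 0.05 before adjustment, beside 3.5% of all tested with a lower mean, and the median log2 fold change was -0.33, beside 0.03 over all tested. The list includes miR-133a-3p and miR-133b-3p, which also stand in the muscle list. It was chosen with earlier results of these data known and holds related miRNAs of the same families. Its counts are therefore a description and no independent support.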

How the data were processed

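Small RNA of 10 heart samples was sequenced from libraries made with a NEXTflex kit, per the labels' protocols. The authors deposited raw read counts per mature miRNA and a second table, a linear signal in which each count is divided by 1 factor per library (relative tolerance 1e-09), equal to the DESeq2 size factor. Per the submitters' processing notes, the GRCm38 build, cutadapt 1.10, Bowtie, STAR and DESeq2 were used, with no role stated. The sources used here give neither the annotation release, nor how reads with several matches were counted, nor whether molecular identifiers were used.

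Columns were matched to samples by title. Knockout was compared with control on the counts by edgeR 4.0.16's quasi-likelihood test (R 4.3.3), fitted with genotype alone, filterByExpr, TMM factors and Benjamini-Hochberg adjustment over all tested miRNAs, which held 99.99% of counts, at a threshold of 0.05. CPM use the totals of these miRNAs times the TMM factors, and log2 CPM a prior count of 2. The SE is the log2 fold change divided by the square root of F. Arm ratios, log2 of 5p over 3p counts with 0.5 added to each and with arms of hairpins of the same name summed, were fitted with limma 3.58.1 over 155 families. Both fits were tested on simulated data. The edgeR fit recovered 100% of 4-fold and 79.2% of 2-fold changes, and 1.15% of its calls were false. For the limma fit of arm ratios these values were 100%, 85% and 9.76%, the last above the threshold of 0.05. In 42 groups of values (members, ratios and sums), a library far from the other 4 was looked for.

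Members and lists were chosen with earlier results of these data known. Named miRNAs are the members, rows with their name or seed, the 5 most alike in pattern, and the muscle list. Members of the fibroblast, erythroid and antifibrotic lists are named to say what each list holds. No pair of libraries within a group agreed within sampling noise: the smallest chi-square divided by its degrees of freedom was 209.6 among knockouts and 107.6 among controls. P-values measure the spread between libraries, which may be technical. In the library with the fewest counts, a count of 0 allows a level of up to 3 counts, or 0.399 CPM of the unscaled total. The replicate numbers 1 to 5 occur in both groups without a stated meaning, so a block was run only as an alternative, as were DESeq2 1.42.0, limma-voom, other scalings and filters, and leaving out each library.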

Additional observations from a re-analysis of the deposited data

Results flagged for a closer look

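Of the 42 groups of values examined, where chance alone would give about 1 in 20, or 2.1, 1 had a library far from its group. The log2 ratio of miR-30e-5p to miR-30c-5p was -0.79 in control replicate 1, against -0.34 to -0.24 in the other controls, a gap of 0.826 of the group's whole range. The knockout libraries lay between -0.71 and -0.44.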

How the results depend on the processing

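No miRNA and no arm ratio passed the threshold in any of the 19 alternative fits of levels or 14 of arm ratios, and all 190 alternative log2 fold changes of members were negative. The smallest adjusted p of a guide ran from 0.18 with the replicate block to 0.99 with DESeq2. The block changed no call and gave 5 members an unadjusted p under 0.05. Same-number libraries correlated between -0.12 and 0.45, with 3 of 5 pairs over 0.1, and the best match was the library of the same number for 4 of 10. Scaling by library totals alone shifted the median over all miRNAs to 0.14, from 0.03 with TMM (log2), and the guides' median relative to it was -0.55 in both. The count of all miRNAs at an unadjusted p under 0.05 was 29, 102 of 1105 without a filter, 16 of 282 with at least 10 CPM in 5 libraries, 45 of 1105 with DESeq2, 14 with library totals only, 72 with the block, and 6 to 84 with 1 library left out. Of 70 alternative arm ratio differences 2 turned in direction, both without control replicate 3: with 1 library left out they ran from -0.15 to 0.19 for miR-30b and from -0.12 to 0.013 for miR-30c, and the cause was not tested. The difference in the guides' share of counts, -1.70 percentage points, ran from -2.07 to -1.06 with 1 library left out, and was -2.64 without the counts of miR-1a-3p. With 5 libraries a group, the 95% interval of a member's log2 fold change had a median half-width of 0.48.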

Other observations

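miR-384-5p shares the miR-30 seed (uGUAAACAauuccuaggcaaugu, seed in capitals, chrX:105344332-105344354 of GRCm38.p6, minus strand) and is best known from neurons. It was too rare to be tested, with 12, 0, 13, 4 and 5 counts in knockout replicates 1 to 5, against 1, 3, 0, 1 and 2 counts in control replicates 1 to 5. Its level stayed under 1 CPM in all 10 libraries, while the rarest miR-30 guide, miR-30b-5p, had at least 1683 CPM in each. At 3 counts or fewer in all controls and in 1 knockout library, no fold is given.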
